A study of Mus musculus with 6 samples.

Results

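The 10 genes of cadherin-based cell adhesion described here are 10 of the 20325 genes listed in each file. They were taken by name and comprise 6 classical cadherins (Cdh1, Cdh2, Cdh3, Cdh4, Cdh6 and Cdh11) and 4 catenins (Ctnna1, Ctnna2, Ctnnb1 and Ctnnd1). The question was whether, in cells on their way to pluripotency, E-cadherin (Cdh1) takes the place of N-cadherin (Cdh2) or is added to it. RNA-seq had been done on Nanog+E-cadherin+ cells (n = 3) and Nanog+E-cadherin- cells (n = 3), sorted after fixation and antibody staining. Both populations came from neural stem cells of postnatal day 4 mice of a mixed 129/Black 6 background. Both carried 2 copies of a doxycycline-inducible Oct4, Sox2, c-Myc and Klf4 cassette (Stemcca) in the ColA1 locus and 1 copy of the reverse tetracycline transactivator in the Rosa26 locus. Both had been kept in doxycycline until day 7, so neither is an untreated control, and both were selected for Nanog protein. E-cadherin protein set the sort gate. The Cdh1 transcript is therefore not independent of the sorting, while the other 9 genes had no part in it.

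Classical cadherins are calcium-dependent membrane proteins whose outer repeats bind the same kind of cadherin on the neighbouring cell. Their cytoplasmic tail binds p120-catenin (Ctnnd1), which holds the cadherin at the surface, and beta-catenin (Ctnnb1). Beta-catenin in turn binds alpha-catenin (Ctnna1, or Ctnna2 in neurons), which links the complex to actin. Free beta-catenin also acts in the nucleus as the effector of Wnt signalling. E-cadherin is the cadherin of epithelia and of pluripotent stem cells, N-cadherin that of neural stem cells and neurons, and an exchange of one for the other is a known feature of transitions between epithelial and mesenchymal states.

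Values of single libraries are given below in the order of their replicate numbers, 1 to 3. The libraries held 8851110 to 39630916 expected counts in all. Nanog transcripts stood between 115 and 211 TPM in Nanog+E-cadherin+ libraries and between 134 and 172 TPM in Nanog+E-cadherin- libraries, where TPM is a level per transcript that is corrected for length and sums to the same total in each library. Libraries with the same replicate number resembled each other across populations, so differences were also read within each number. Nanog+E-cadherin- replicates 2 and 3 stood apart from the rest: 1492 genes of sensory receptor and Skint families, families of narrow tissue range, summed to 2017 and 1326 CPM, which is counts scaled to the library size, there and to 36.7 CPM in Nanog+E-cadherin- replicate 1. The same sum was 32.2, 166 and 117 CPM in Nanog+E-cadherin+ libraries. The pair numbered 1 lacks both libraries, and its values stand with each of the 10 genes below. The labels do not say whether replicates came from separate animals or cultures, so p-values cover the spread between these libraries alone, which may be technical.

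E-cadherin transcripts were high in the Nanog+E-cadherin+ cells and present at a lower level in the Nanog+E-cadherin- cells. Cdh1 stood at 30.5, 68.6 and 61.2 TPM in Nanog+E-cadherin+ libraries, against 5.20, 9.68 and 7.84 TPM in Nanog+E-cadherin- libraries. Every Nanog+E-cadherin+ library was above every Nanog+E-cadherin- library. The ratio of the populations was 5.87, 7.09 and 7.80 in the pairs numbered 1 to 3. Cdh1 was not absent from the E-cadherin- gate, where it had 588, 234 and 147 expected counts. In bulk RNA, fewer Cdh1-expressing cells and less Cdh1 RNA per cell cannot be told apart. The log2 fold change was 2.89 (95% interval 2.32 to 3.46), and the adjusted p was 0.0608 in edgeR's test with group only, across all genes. With the replicate number entered as a block the fold change was 2.87 (95% interval 2.45 to 3.30) and passed, with an adjusted p of 0.00177. Without both Nanog+E-cadherin- libraries numbered 2 and 3 the group-only value was 2.96, a fit in which the lone remaining Nanog+E-cadherin- library is assumed to vary like the others. Of 12 epithelial markers 0 passed with group only or with the block, while 8 were higher in Nanog+E-cadherin+ cells with no overlap between libraries, against 3.75% of all genes tested. Cldn3, a tight junction protein, was lower in each pair. Their summed level was 278, 179 and 190 CPM in Nanog+E-cadherin+ libraries, where all 12 were detected, against 169, 196 and 136 CPM in Nanog+E-cadherin- libraries, where 12, 11 and 8 were, so the sum was lower in the pair numbered 2. Of 10 markers of pluripotent cells, among them the sorted Nanog itself and the cassette factor Oct4 (Pou5f1), 7 could be tested. With group only all 7 were fitted higher in Nanog+E-cadherin+ cells, against 6522 of the 13460 genes tested. Of the 7, 0 passed in the group-only fit and 1 in the blocked fit, against 0.305% of all genes with the block. The 1 was the Nodal co-receptor Tdgf1 (log2 fold change 2.23, adjusted p = 0.0490 in edgeR's test). With no overlap between libraries 2 of the 7 (28.6%) were higher, against 3.75% of all genes tested. The pluripotent markers summed to 768, 529 and 479 CPM in Nanog+E-cadherin+ libraries, with 10, 9 and 10 detected. In Nanog+E-cadherin- libraries they summed to 430.1, 469.8 and 437 CPM, with 10, 9 and 8 detected, lower in each pair. Pou5f1 alone averaged 375 CPM in Nanog+E-cadherin+ libraries and 288 CPM in Nanog+E-cadherin- libraries. It differed by 0.99, -0.087 and 0.030 in log2 CPM in the pairs numbered 1 to 3. Transcripts of the cassette and of the cells' own Pou5f1 were not told apart. Nanog+E-cadherin- replicate 3 was the shallowest library, at 8851110 expected counts. Over all genes, fewer were detected there, 13833 against 15527 to 16407 in the other libraries. The part of depth in the numbers of markers detected was not tested. The part of either list in the result was not tested.

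N-cadherin transcripts were present in the Nanog+E-cadherin+ cells, at 0.680 to 0.935 times the level of their same-numbered partners. Cdh2 stood at 3.08, 21.9 and 39.3 TPM in Nanog+E-cadherin+ libraries, against 3.97, 23.4 and 57.8 TPM in Nanog+E-cadherin- libraries. The libraries of both populations overlapped widely, since the level followed the replicate number: both libraries numbered 1 were low, both numbered 2 intermediate and both numbered 3 high. Within a number the ratio was 0.776, 0.935 and 0.680, so each Nanog+E-cadherin+ library was under its partner in TPM. The 10 markers of neural stem cells and radial glia, all detected in every library, summed to 505, 887 and 1072 CPM in Nanog+E-cadherin+ libraries, against 724, 984 and 1206 CPM in Nanog+E-cadherin- libraries. Like Cdh2, the sum was lower in each pair and differed by replicate number in the same order. With group only 8 of the 10 were fitted lower, against 6938 of the 13460 genes tested, and 0 passed in either fit. Their part in the Cdh2 level was not tested. The fitted log2 fold change was -0.26 (95% interval -2.35 to 1.82; adjusted p = 0.99987 in edgeR's test) with group only. With the replicate block it was -0.24 (95% interval -0.63 to 0.15; adjusted p = 0.665), which corresponds to a level between 0.645 and 1.11 times that of the Nanog+E-cadherin- cells. Neither fit passed the test, and the blocked interval allows a decrease down to that lower bound but holds no difference as large as the 7.34-fold one fitted for Cdh1. The exact two-sided permutation test on log2 CPM, which does not use the pairing by number, gave p = 0.7 for Cdh2 and p = 0.1 for Cdh1. Since 3 libraries against 3 cannot go below 0.1, it could pass for neither. Without both Nanog+E-cadherin- libraries numbered 2 and 3 the group-only value was 1.94, a fit that sets the low pair numbered 1 against 2 higher Nanog+E-cadherin+ libraries and so mixes population with replicate number.

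**Figure D1:**
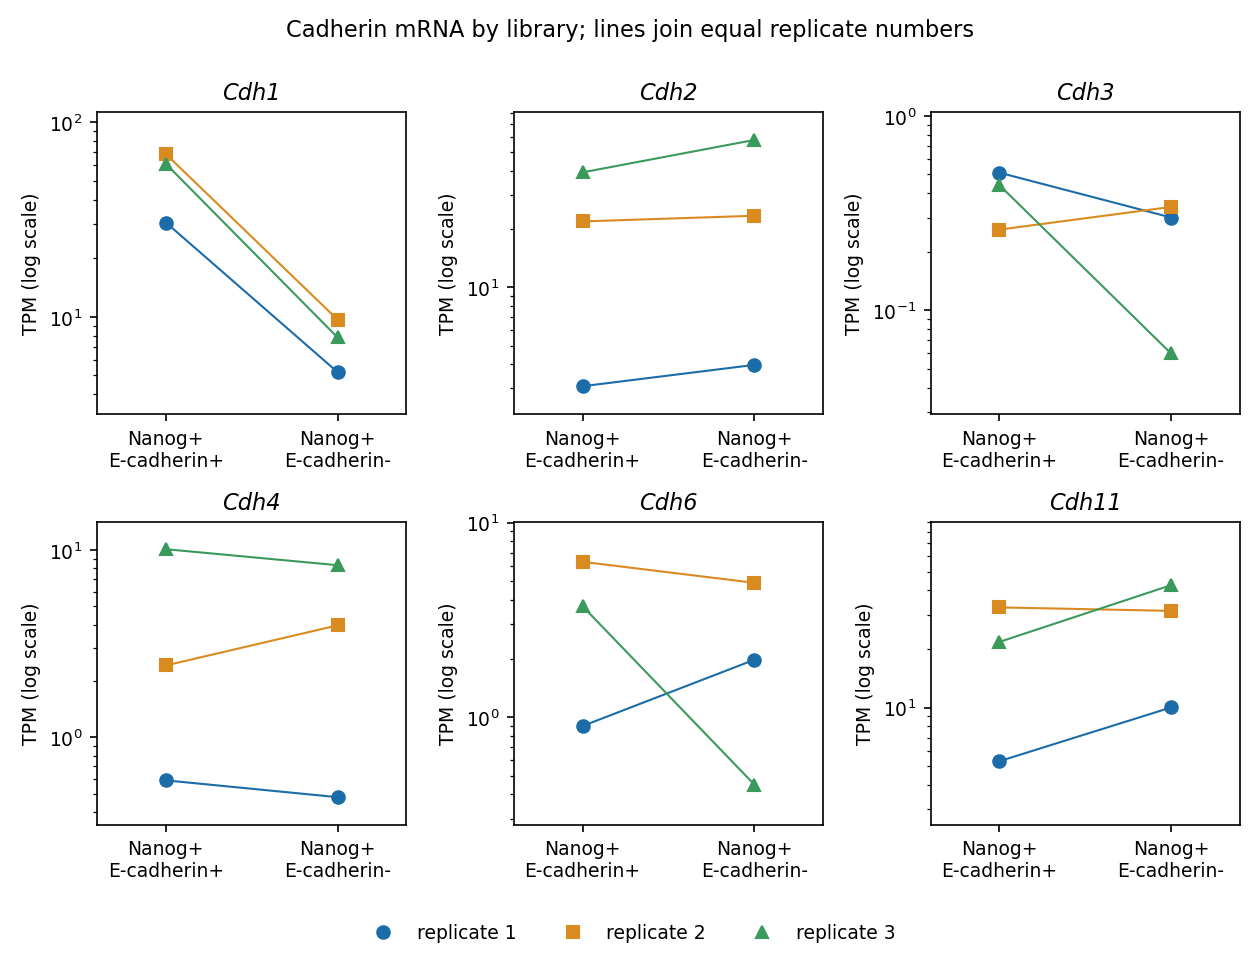
TPM (log axis) of the 6 cadherins in each library, Nanog+E-cadherin+ on the left and Nanog+E-cadherin- on the right of each panel; points are single libraries and lines join libraries with the same replicate number. Cdh1 falls steeply to the right in every pair, while the 3 lines of Cdh2 rise to the right, less steeply than Cdh1 falls. The Cdh2 lines lie at separate heights, from 3.08 and 3.97 TPM in the libraries numbered 1 to 39.3 and 57.8 TPM in those numbered 3.

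Cdh1 held a larger share of the cadherin transcripts in Nanog+E-cadherin+ cells, and the cadherin total was higher in each pair. Cdh1 made up 74.6%, 51.9% and 44.8% of the summed TPM of the 6 cadherins in Nanog+E-cadherin+ libraries, against 23.7%, 13.1% and 6.70% in Nanog+E-cadherin- libraries. Cdh2 made up 7.53%, 16.6% and 28.8% in Nanog+E-cadherin+ libraries and 18.1%, 31.8% and 49.4% in Nanog+E-cadherin- libraries. A share of Cdh2 falls when Cdh1 rises even at an equal level of Cdh2, so the sums are needed beside it. The summed TPM of the 6 cadherins was 40.9, 132 and 136 in Nanog+E-cadherin+ libraries, against 21.9, 73.7 and 117.0 in Nanog+E-cadherin- libraries. Leaving Cdh1 out, the other 5 cadherins summed to 10.4, 63.6 and 75.3 TPM in Nanog+E-cadherin+ libraries, against 16.7, 64.0 and 109 TPM in Nanog+E-cadherin- libraries. These sums were lower in the Nanog+E-cadherin+ library of the pairs numbered 1 and 3 and nearly equal in the pair numbered 2.

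The order of the 2 cadherins differed between populations in most but not all libraries. The ratio of Cdh1 TPM to Cdh2 TPM was 9.92, 3.13 and 1.56 in Nanog+E-cadherin+ libraries, against 1.31, 0.413 and 0.136 in Nanog+E-cadherin- libraries. Cdh1 thus exceeded Cdh2 in all 3 Nanog+E-cadherin+ libraries, and also in Nanog+E-cadherin- replicate 1, where Cdh2 was low. The lowest Nanog+E-cadherin+ ratio, in replicate 3, was close to the highest Nanog+E-cadherin- ratio, in replicate 1. Nanog+E-cadherin+ replicate 3 held 39.3 TPM of Cdh2 beside 61.2 TPM of Cdh1. Whether single cells held both transcripts was not measured.

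**Figure D2:**
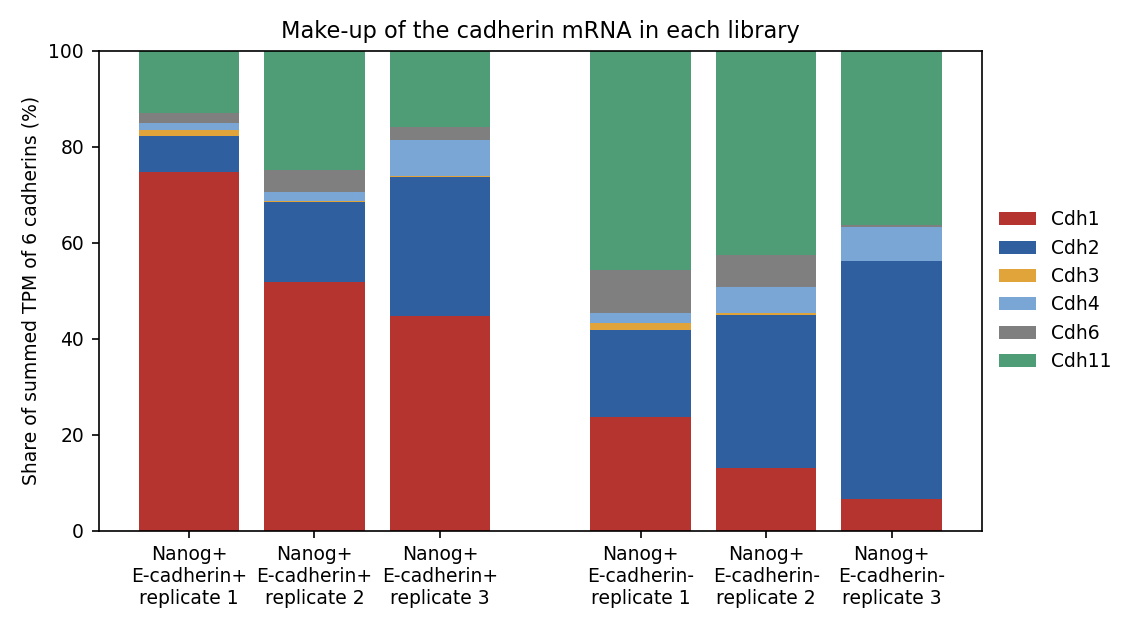
Share (%) of each cadherin in the summed TPM of the 6 cadherins, one bar per library, with Nanog+E-cadherin+ replicates 1 to 3 on the left and Nanog+E-cadherin- replicates 1 to 3 on the right. The Cdh1 share is 44.8% or more in each Nanog+E-cadherin+ bar and 23.7% or less in each Nanog+E-cadherin- bar, and within each population the Cdh2 share is smallest in replicate 1 and largest in replicate 3.

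Cdh11, a type II cadherin known from mesenchymal cells, was the other abundant cadherin. It stood at 5.30, 32.7 and 21.8 TPM in Nanog+E-cadherin+ libraries, against 10.01, 31.4 and 42.6 TPM in Nanog+E-cadherin- libraries. It was about as low in proportion within the pairs numbered 1 and 3, with ratios of 0.529 and 0.511, and level in the pair numbered 2, with a ratio of 1.04. With the block its log2 fold change was -0.51 (95% interval -1.01 to -0.01), with an unadjusted p of 0.0478 and an adjusted p of 0.459 in edgeR's test, so it did not pass. Its group-only value was -0.42 (adjusted p = 0.99987), and it was 0.50 without both Nanog+E-cadherin- libraries numbered 2 and 3. With a single library left out the group-only value ran from -0.83, when Nanog+E-cadherin+ replicate 2 was omitted, to -0.037, when Nanog+E-cadherin+ replicate 1 was. Omitting Nanog+E-cadherin- replicate 1 gave -0.72, and omitting Nanog+E-cadherin- replicate 3 gave -0.11. In Nanog+E-cadherin- libraries Cdh11 was above Cdh2 in replicates 1 and 2 and below it in replicate 3. Markers of fibroblasts and mesenchymal cells, a list of 10 genes of which 9 or 10 were detected in each library, summed to 396, 3852 and 1569 CPM in Nanog+E-cadherin+ libraries and to 476, 2252 and 2484 CPM in Nanog+E-cadherin- libraries, low in both libraries numbered 1 as Cdh11 was. Their part in the result was not tested.

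R-cadherin (Cdh4), a type I cadherin of the developing nervous system and retina, varied by replicate number in the same way as Cdh2. Its level was 0.59, 2.42 and 10.1 TPM in Nanog+E-cadherin+ libraries, against 0.48, 3.96 and 8.29 TPM in Nanog+E-cadherin- libraries. The highest library was 17.1 times the lowest within the Nanog+E-cadherin+ population and 17.3 times the lowest within the Nanog+E-cadherin- population. The blocked log2 fold change was 0.06 (95% interval -0.71 to 0.84; adjusted p = 0.962 in edgeR's test). Its sign differed between pairs.

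The remaining cadherins were low. K-cadherin (Cdh6), a type II cadherin of kidney and of parts of the developing brain and neural crest, stood at 0.90, 6.28 and 3.71 TPM in Nanog+E-cadherin+ libraries, against 1.97, 4.90 and 0.45 TPM in Nanog+E-cadherin- libraries. The lowest value rests on 5 expected counts, and the pairs went in different directions, with ratios of 0.457, 1.28 and 8.24. P-cadherin (Cdh3), a type I cadherin of basal epithelia and placenta, never exceeded 0.51 TPM or 26.0 expected counts. It lies directly beside Cdh1 in the mouse genome, with no protein-coding gene between them in the RefSeq annotation of GRCm38. Cdh3 stood at 0.51, 0.26 and 0.44 TPM in Nanog+E-cadherin+ libraries, against 0.30, 0.34 and 0.06 TPM in Nanog+E-cadherin- libraries, with overlap. Its blocked interval of the log2 fold change, -1.98 to 3.85, is too wide at this depth to tell a rise from a fall. That interval also holds the 2.87 fitted for Cdh1, so a difference from Cdh1 cannot be told either.

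Beta-catenin (Ctnnb1) had the highest TPM of the 10 genes in every library, followed by Ctnna1 and Ctnnd1. It stood at 454, 872 and 557 TPM in Nanog+E-cadherin+ libraries, against 610.1, 827 and 784 TPM in Nanog+E-cadherin- libraries. The populations overlapped, and the blocked log2 fold change of -0.18 (95% interval -0.47 to 0.10; adjusted p = 0.642 in edgeR's test) did not pass. Relative to the 6 cadherins together, Ctnnb1 TPM was 11.1, 6.59 and 4.08 times as high in Nanog+E-cadherin+ libraries, against 27.8, 11.2 and 6.70 times in Nanog+E-cadherin- libraries. The ratio was thus lower in the Nanog+E-cadherin+ library of every pair, where Cdh1 adds to the divisor, and stayed above 1 in each library.

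Of the alpha-catenins, the widely expressed Ctnna1 made up 98.5%, 97.99% and 98.6% of the summed alpha-catenin TPM in Nanog+E-cadherin+ libraries, and 97.5%, 97.1% and 98.6% in Nanog+E-cadherin- libraries. Ctnna1 stood at 75.4, 188 and 201 TPM in Nanog+E-cadherin+ libraries, against 82.1, 214 and 278 TPM in Nanog+E-cadherin- libraries. Both libraries numbered 1 were the lowest of their population. In the blocked fit the log2 fold change of Ctnna1 was -0.16 (95% interval -0.46 to 0.14; adjusted p = 0.694 in edgeR's test). It was 0.49 with group only without both Nanog+E-cadherin- libraries numbered 2 and 3, and -0.18 with all 6 libraries.

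The neuronal alpha-catenin Ctnna2 was lower in the Nanog+E-cadherin+ library of every pair but did not pass. It stood at 1.14, 3.86 and 2.94 TPM in Nanog+E-cadherin+ libraries, against 2.08, 6.41 and 4.08 TPM in Nanog+E-cadherin- libraries. The populations overlapped across numbers, while within a number the ratio was 0.548, 0.602 and 0.721. Its blocked log2 fold change was -0.59 (95% interval -1.53 to 0.34; adjusted p = 0.648 in edgeR's test). The sum of neuron markers moved the same way within pairs: 14 measured genes, of which 11 to 14 were detected in each library, summed to 896, 449 and 249 CPM in Nanog+E-cadherin+ libraries and to 1271, 749 and 401 CPM in Nanog+E-cadherin- libraries. Of 13 that could be tested, 10 were fitted lower and 3, Stmn2, Gap43 and Nefl, higher in both fits. With group only 0 passed. With the block 1 passed, against 0.305% of all genes, namely Tubb3 (log2 fold change -1.27, adjusted p = 0.0370 in edgeR's test). With no overlap between libraries 4 (30.8%) were lower, against 3.22% of all genes tested. Across numbers the neuron sum did not follow Ctnna2, since it was highest in the libraries numbered 1, where Ctnna2 was lowest. The part of the neuron markers in the result was not tested.

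For p120-catenin (Ctnnd1), the level was 47.5, 93.1 and 94.8 TPM in Nanog+E-cadherin+ libraries, against 42.3, 65.4 and 119 TPM in Nanog+E-cadherin- libraries. The Nanog+E-cadherin+ library was higher in the pairs numbered 1 and 2 and lower in the pair numbered 3. The blocked log2 fold change was 0.22 (95% interval -0.13 to 0.58; adjusted p = 0.648 in edgeR's test). Ctnnd1 has 5 annotated transcripts in the files, and its abundance-weighted transcript length ran from 5106 to 5157 bases in Nanog+E-cadherin+ libraries and from 5052 to 5150 bases in Nanog+E-cadherin- libraries, with overlap. No change of that length stood out between the populations. Transcripts of similar length can replace each other without changing it, and transcript usage itself was not tested.

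**Figure D3:**
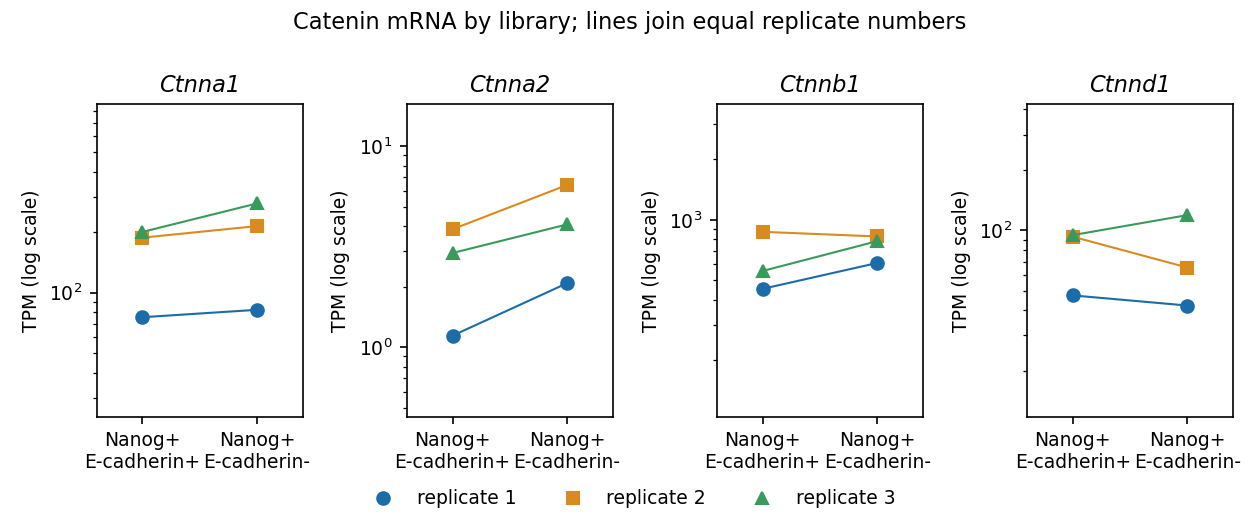
TPM (log axis) of the 4 catenins in each library, drawn as for the cadherins with Nanog+E-cadherin+ on the left of each panel. The lines of Ctnna2 climb to the right in all 3 pairs, from 1.14 to 3.86 TPM on the left and 2.08 to 6.41 TPM on the right, and the populations overlap for all 4 genes.

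All 10 genes entered the test. With group only, 0 of the 10 passed an adjusted p of 0.05, as did 0 of the 13460 genes tested (0%), while 1 of the 10, Cdh1, had an unadjusted p under 0.05 against 2.67% of all genes. With the replicate block 1 of the 10, again Cdh1, passed, against 0.305% of all genes, and 2, Cdh1 (higher) and Cdh11 (lower), had an unadjusted p under 0.05 against 10.7% of all genes. DESeq2's Wald test with group only also called Cdh1 alone, but it gave no adjusted p for Cdh3, Cdh4, Cdh6 and Ctnna2, which it could not call. Limma-voom called 0 of the 10. Libraries of the populations did not overlap for 1 of the 10 with Nanog+E-cadherin+ higher, which was Cdh1, and for 0 with it lower, against 3.75% and 3.22% of all genes. E-cadherin protein set the sort gate, so every count that rests on Cdh1 is not independent of the sorting. No other member passed in these fits or was free of overlap. The median group-only log2 fold change was 0.01 over the 10 genes and -0.01 over all genes tested.

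**Figure D4:**
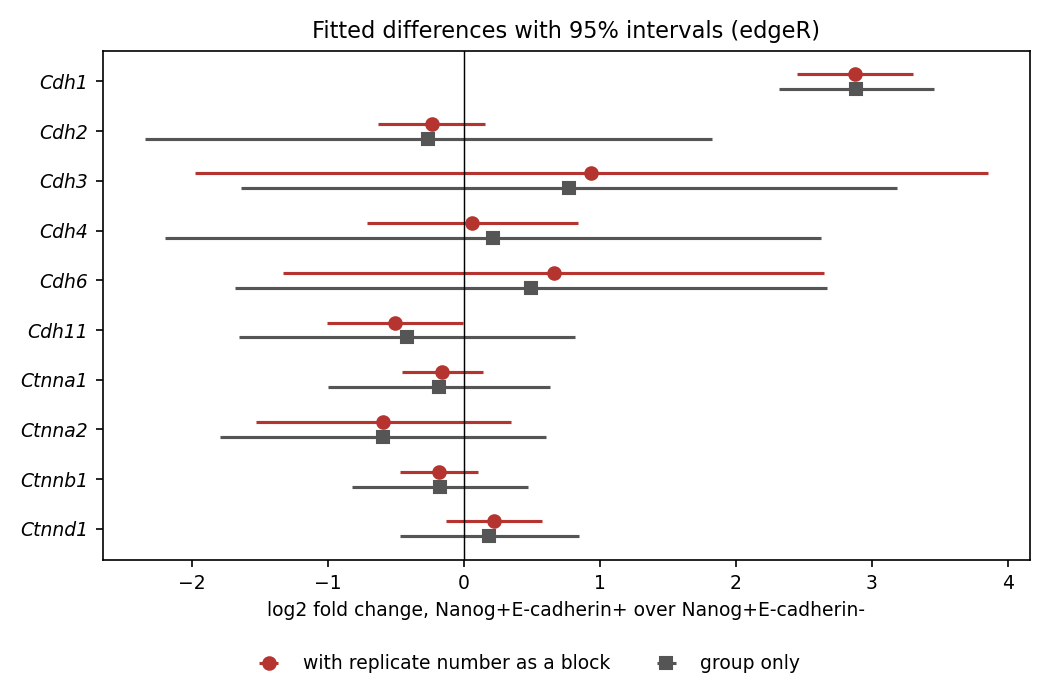
Fitted log2 fold changes, Nanog+E-cadherin+ over Nanog+E-cadherin-, for the 10 genes, with 95% intervals from edgeR; circles are the fit with the replicate number as a block and squares the fit with group only. Cdh1 lies at 2.87 and 2.89, the blocked interval of Cdh2 spans -0.63 to 0.15, and the intervals of the other 9 genes reach 0 except the blocked one of Cdh11, which ends at -0.01.

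For 7 of the 10 genes more than 50% of the variation lay between replicate numbers, as it did for most genes tested, whose median was 64.6%. Cdh1 followed the population, and for Cdh3 and Cdh6 neither reached 50%, with 43.6% and 44.0% between numbers. With 3 levels against 2, the replicate number on average takes a larger share than the population even where neither has an effect. Of the sum of squares of log2 CPM over the 6 libraries, the replicate number took 99.0% for Cdh2, 96.3% for Cdh4, 94.7% for Ctnna1 and 81.9% for Cdh11, and the population took 98.3% for Cdh1. Over all genes tested the median was 64.6% for the replicate number and 9.36% for the population. In the blocked fit a test of the difference between numbers passed for 4 of the 10 genes, against 22.2% of all genes. They were Cdh2 (adjusted p = 3.95e-04), Cdh4 (0.00286), Ctnna1 (0.00968) and Cdh11 (0.0101), each in edgeR's test and each lowest in the libraries numbered 1. Cdh1 did not pass that test (adjusted p = 0.427). Astrocyte markers, a list of 6 genes all detected in every library, were likewise low in the libraries numbered 1, with summed CPM of 218, 763 and 1321 in Nanog+E-cadherin+ libraries and of 144, 664 and 1056 in Nanog+E-cadherin- libraries. Their part in the levels of these cadherins was not tested, and what distinguishes the replicate numbers is not given in the labels.

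**Figure D5:**
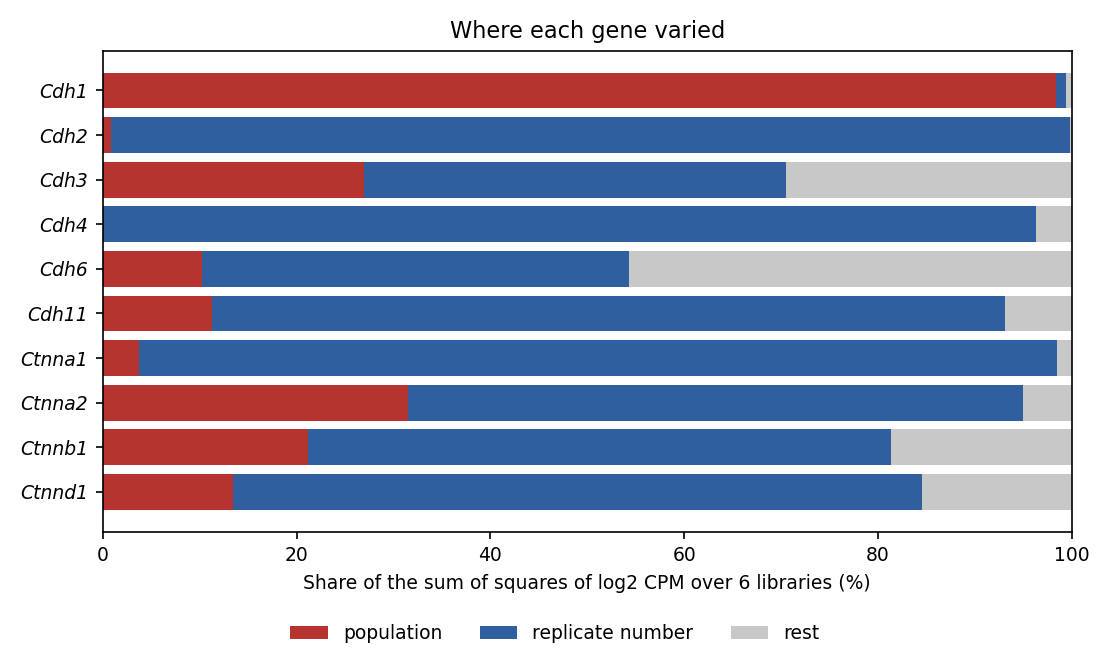
Share (%) of the sum of squares of log2 CPM over the 6 libraries that lies between populations, between replicate numbers, or in neither, for each of the 10 genes. The bar of Cdh1 is 98.3% population and that of Cdh2 is 99.0% replicate number.

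The surrounding machinery of the cadherin complex held no gene that passed the test. Of 63 further genes in 4 lists, 62 were found in the files and 55 could be tested, of which 0 passed in either direction with group only or with the replicate block. In these, 4 genes (7.27%) were higher and 1 (1.82%) lower with no overlap between populations, beside the 3.75% and 3.22% of all genes. Their median group-only log2 fold change was 0.02. With group only 28 were fitted higher and 27 lower, beside 6522 higher and 6938 lower of all 13460 genes tested. At an unadjusted p under 0.05, 0 were higher and 1 lower with group only, against 2.67% of all genes in either direction. With the block 3 were higher and 4 lower, against 10.7% of all genes in either direction.

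Among 12 other classical cadherins, 6 could be tested, and 1 was fitted higher and 5 lower with group only. Of these, Cdh24, named after its values were seen, was the most abundant, at 7.21, 17.5 and 11.2 TPM in Nanog+E-cadherin+ libraries, against 8.17, 15.7 and 14.4 TPM in Nanog+E-cadherin- libraries. The endothelial cadherin Cdh5 reached at most 1.52 TPM, Cdh10 at most 4.90 TPM and Cdh22 at most 3.02 TPM in any library. Cdh24 was above Cdh2 in both libraries numbered 1 and below it in the other 4.

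Of 20 tested catenin relatives and junction partners, 14 were fitted higher and 6 lower with group only. Of all 13460 genes tested, 6522 were fitted higher and 6938 lower. Plakoglobin (Jup), the beta-catenin relative shared by adherens junctions and desmosomes, stood at 33.5, 127 and 155 TPM in Nanog+E-cadherin+ libraries, against 30.7, 109 and 95.1 TPM in Nanog+E-cadherin- libraries. It was higher in each pair, with a blocked log2 fold change of 0.45 and an adjusted p of 0.418 in edgeR's test. Pkp4, a p120-related catenin, stood at 21.9, 42.3 and 44.0 TPM in Nanog+E-cadherin+ libraries, against 19.1, 33.0 and 34.2 TPM in Nanog+E-cadherin- libraries, and was higher in each pair (adjusted p = 0.417 with the block in edgeR's test). The immunoglobulin-type adhesion molecule nectin-1 (Pvrl1) was higher in each pair, by 0.33, 0.56 and 0.65 in log2 CPM, with a blocked log2 fold change of 0.51 (adjusted p = 0.376 in edgeR's test). The actin regulator Vasp was higher by 0.11, 0.24 and 0.41 in log2 CPM in the pairs numbered 1 to 3 (adjusted p = 0.601 with the block in edgeR's test). Vinculin (Vcl), which binds alpha-catenin under tension, stood at 11.7, 85.1 and 80.5 TPM in Nanog+E-cadherin+ libraries, against 13.2, 76.97 and 96.1 TPM in Nanog+E-cadherin- libraries, low in the libraries numbered 1 like Cdh2. Afadin (Mllt4), which links nectins to actin, differed by -0.15, 0.36 and 0.055 in log2 CPM in the pairs numbered 1 to 3, with a blocked log2 fold change of 0.09 (adjusted p = 0.869 in edgeR's test).

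Of 18 tested genes of cadherin shedding, endocytosis and phosphorylation, 8 were fitted higher and 10 lower with group only. Presenilin 2 (Psen2), a catalytic subunit of gamma-secretase, stood at 17.2, 25.2 and 26.1 TPM in Nanog+E-cadherin+ libraries, against 22.8, 38.5 and 49.0 TPM in Nanog+E-cadherin- libraries. It was lower in each pair, with a blocked log2 fold change of -0.53 and an adjusted p of 0.404 in edgeR's test. The sheddase Adam10 differed by -0.056, -0.17 and -0.69 in log2 CPM in the pairs numbered 1 to 3, so most of its blocked log2 fold change of -0.31 (95% interval -0.75 to 0.14; adjusted p = 0.618 in edgeR's test) came from the pair numbered 3. The tyrosine phosphatase Ptpn1 differed by -0.47, -0.30 and 0.18 and thus changed direction in the pair numbered 3 (adjusted p = 0.701 with the block in edgeR's test). Of 11 tested genes of the complex that marks free beta-catenin for destruction and its regulators, 5 were fitted higher and 6 lower. Apc2, a neural relative of Apc, stood at 1.06, 5.24 and 5.54 TPM in Nanog+E-cadherin+ libraries, against 3.45, 10.5 and 8.12 TPM in Nanog+E-cadherin- libraries, lower in each pair (blocked log2 fold change -0.98, adjusted p = 0.263 in edgeR's test). Axin2, a scaffold of that complex that is itself a Wnt target, was higher by 0.15, 0.51 and 0.47 in log2 CPM in the pairs numbered 1 to 3 (adjusted p = 0.594 with the block in edgeR's test). The ubiquitin ligase subunit Btrc was higher by 0.069, 0.32 and 1.07, mostly in the pair numbered 3, with a blocked log2 fold change of 0.48 (95% interval -0.06 to 1.01; adjusted p = 0.519 in edgeR's test). The scaffold Fam123b differed by -0.36, 0.36 and -1.41, so its sign was not the same in all pairs (blocked log2 fold change -0.47; 95% interval -1.20 to 0.25; adjusted p = 0.639 in edgeR's test).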

How the data were processed

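RNA-seq libraries of 6 sorted samples were analysed, grouped and numbered from their titles. Per the submitters' processing notes, Bowtie and RSEM 1.2.4 were used with genome build mm9; settings and strand use are not given in these sources. Per the file headers, each file gives expected counts, TPM and FPKM per gene. The expected counts deposited by the authors were rounded to whole numbers for the count tests. The TPM values deposited by the authors were used as levels, since they are corrected for length, and the FPKM values deposited by the authors were not used. CPM of single genes were scaled by TMM, and summed CPM of marker lists by library totals.

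For the main test, quasi-likelihood models were fitted in edgeR 4.0.16 (R 4.3.3) to all 13460 genes that passed filterByExpr at a minimum count of 10 and a minimum total of 15, with TMM scaling, group as the sole term and Benjamini-Hochberg adjustment over all of them. Intervals are 95%, from the same fits. DESeq2 1.42.0, limma 3.58.1 (voom, and log2(TPM + 1) or log2(TPM + 0.1)), other scalings, no filter and left-out libraries were alternatives. At 5 CPM the shallowest library held 44.3 counts. Log2 CPM used a prior count of 2. Fold changes have Nanog+E-cadherin+ on top. The steps were tested on simulated data.

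Both populations carry replicate numbers 1 to 3. Deviations from the group means correlated across genes at 0.75, 0.41 and 0.48 in same-numbered libraries, over the limit of 0.1, and from -0.62 to 0.12 otherwise. The values 0.122 and 0.102 of libraries with unlike numbers were also over that limit, so the limit alone does not separate them. Since the same-numbered values were the highest, numbers were treated as pairs. The labels do not state a shared culture. The biological coefficient of variation was 0.285 with the block and 0.499 without.

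Members and lists were chosen with earlier results of these data known. All 10 members are named; of each pathway list, the 3 genes of smallest p with group only, plus Jup, Vcl, Mllt4, Axin2 and Cdh5. Summed levels of markers of endothelial cells (8.53 to 65.3 CPM), of blood and microglia (6.35 to 15.4 CPM) and of the oligodendrocyte lineage (77.8 to 264 CPM) are ranges over the 6 libraries. Coordinates are not printed, since the annotation used for gene names is GRCm38.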

Additional observations from a re-analysis of the deposited data

How the results depend on the processing

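Cdh1 stayed higher under every alternative run. It passed the test without the low-count filter (2.904, adjusted p = 0.0200), with DESeq2's Wald test (2.898), and with the replicate block in edgeR (2.87), in DESeq2 (2.89) and with library totals (2.84), and it did not pass under the others, among them the fits with a single library left out (2.81 to 3.02). With the block and both libraries of 1 number left out it ran from 2.73 to 3.00 (2.906 without those numbered 2) and passed each time. Cdh2 did not pass under any alternative. Its value changed sign to 0.030 with limma-voom, ran from -1.03 to 0.66 with a single library left out (0.21 without the Nanog+E-cadherin+ library numbered 1, and 0.66 when the Nanog+E-cadherin- library numbered 3 was left out), and was 1.94 without both Nanog+E-cadherin- libraries numbered 2 and 3, an alternative chosen after seeing the data. Leaving out single libraries unbalances the replicate numbers; in the 6 fits with the replicate block Cdh2 stayed between -0.31 and -0.18.

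Other members that did not pass changed sign as follows. Cdh4 was -0.059 and -0.052 with log2(TPM + 1) and log2(TPM + 0.1), -1.27 to 1.048 with a single library left out (-0.29 without Nanog+E-cadherin- replicate 1), and -0.083 and -0.18 with the block without the libraries numbered 1 and 3. Cdh6 ran from -0.012 to 1.16 with a single library left out and was -0.32 with the block without those numbered 3. Ctnna1 ran from -0.43 to 0.054 (0.018 without Nanog+E-cadherin+ replicate 1) and was 0.49, and Cdh11 0.50, without both Nanog+E-cadherin- libraries numbered 2 and 3; Cdh11 ran from -0.83 to -0.037 with a single library left out.

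The count of members passing was 1, Cdh1, without the filter, with DESeq2 and in every fit with the replicate block, and 0 otherwise. Over all genes it was 1 without the filter, 21 with DESeq2, 41 with the replicate block, 35 with the block and library totals, 304 with the block in DESeq2, and 194, 139 and 510 with the block without the libraries numbered 1, 2 and 3. Of the 55 further genes 0 passed except with the block without 1 number, where 1 did: Pvrl2 (higher) without the libraries numbered 1 or 2, and Apc2 (lower) without those numbered 3. The cause of these differences was not tested. Depth limits Cdh3 and Cdh6, whose lowest libraries held 0.94 and 5 expected counts.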
